A study of Mus musculus with 6 samples.

Results

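Pbx3 was over-expressed in mouse mesenchymal stem cells, and RNA from these cells was compared with RNA from the same cells carrying an empty vector. The comparison takes in genes whose normalised count averaged 50 or more over both groups. This left 9826 of 23227 genes in reads from exons and 8557 of 23231 genes in reads from introns, with 7973 genes in both. Exonic reads come mostly from finished messenger RNA and intronic reads mostly from RNA not yet spliced.

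The cells were immortalized mesenchymal stem cells of a monoclonal Dicer WT (Dicer f/f) line, which the labels also call fibroblasts, grown in Alpha-MEM with 10% fetal bovine serum. All groups used here share that clone and its Dicer f/f alleles, and differ in what was transfected: an empty vector, or a vector with a Pbx3, Sox9 or Tead4 transcript. The sources used here do not give the vector backbone, its promoter or the time from transfection to harvest. Sequencing used total RNA prepared with RiboZero, a depletion of ribosomal RNA. The series lists 6 samples in all, and the 2 Dicer WT and Dicer KO samples without a vector were not used here. Each group has 1 listed sample, but its deposited means are those of 2 libraries. No label says that they came from separate cultures, so a p-value here reflects no more than library-to-library spread, possibly technical.

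Pbx3 belongs to the PBX family of TALE homeodomain proteins. PBX proteins bind DNA together with HOX proteins and with MEIS and PREP proteins, and such complexes pattern the limbs, the face and the body axis. In mesenchyme they are known for setting positional programmes, often by tuning signalling genes of the hedgehog, Wnt and BMP pathways.

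Exonic depth was 8580445 to 11011360 reads per library in the vector and Pbx3 groups, and intronic depth was 3524600 to 4602138 reads. The 2 libraries of each group differed from each other along an axis that the groups share: over 9826 genes, the exonic difference between libraries correlated at r = -0.807 between vector and Pbx3 cells. Libraries are numbered by size factor, so the sign of r follows that numbering. The axis orders genes, not conditions, so a gene that lies on it varies within each group. The main test below has no term for the axis, so that variation counts as spread. The median absolute log2 difference between libraries was 0.247 for vector and 0.271 for Pbx3 in exonic reads. In exonic reads 12 of 14 stromal cell markers reached a mean of 50, while Thy1, a usual surface marker of such cells, had 0 reads in all 4 libraries. None of the 6 endothelial, 6 immune, 6 epithelial and 5 neuronal markers reached 50 in exonic reads (0 markers each). Their summed exonic levels stayed between 0 and 28.3 normalised counts in every library, and Cdh5, Ptprc, Itgam, Epcam and Rbfox3 had 0 exonic reads. In the longer gene lists used below, 1 of 16 immune markers (Cd14) and 2 of 29 neuronal genes (Ncam1 and Uchl1) did reach the minimum. None of the 13 endothelial and 14 epithelial markers of those lists did so in exonic reads. In intronic reads the endothelial cadherin Cdh5 was at 62.5 and 75 in vector and 72.9 and 64.0 in Pbx3 cells.

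Pbx3 itself was the gene furthest from vector. Its exonic level was 259 and 221 normalised counts in the vector libraries and 36740 and 27165 in the Pbx3 libraries. The Sox9 libraries held 212 and 276 and the Tead4 libraries 279 and 258. The 6 libraries without the Pbx3 vector thus lay in a narrow range, far below both Pbx3 libraries. Exonic Pbx3 rose by 7.04 ± 0.19 on the log2 scale, a 133-fold ratio of group means (limma adjusted p = 6.07e-06). This is the check of the label, and it cannot tell transcripts of the vector from those of the cells' own gene.

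Intronic Pbx3 also rose, from 1313 and 1562 normalised counts to 5109 and 4745. The change was 1.78 ± 0.15 on the log2 scale, or 3.42-fold (limma adjusted p = 0.0072). The intronic Pbx3 level of the Sox9 libraries (1634 and 2073) and of the Tead4 libraries (1398 and 1288) was near that of vector. The exonic change exceeded the intronic one by 5.26 ± 0.18 on the log2 scale (limma adjusted p = 3.32e-06).

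The other factors of the study were low in these cells or varied between libraries. Exonic Sox9, the cartilage master regulator, was 139 and 56.7 in vector against 64.1 and 90.4 in Pbx3 cells, so the groups overlapped. The Sox9-transfected libraries held only 215 and 223. Tead4, the DNA-binding partner of YAP, stayed under the minimum of 50 with 39.3 and 41.3 in vector and 48.1 and 18.5 in Pbx3 cells, against 6961 and 5121 in Tead4-transfected cells. Dicer1, the microRNA-processing enzyme, was 798 and 986 in vector and 1017 and 695 in Pbx3 cells, also overlapping.

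Among the genes of the PBX, MEIS, PREP and TGIF families, only Pbx3 itself passed the test. Of 12 listed PBX, MEIS, PREP and TGIF genes 11 were measured in exonic reads, 1 rose (Pbx3 itself) and 10 did not pass. The median of the list was -0.06 on the log2 scale, beside -0.0014 over all tested genes. The largest values after Pbx3 were those of the repressors Tgif2 (-0.31 ± 0.25) and Tgif1 (0.28 ± 0.15) and of the PBX-binding protein Pbxip1 (-0.26 ± 0.23). Pbx4 had 2 to 11 exonic reads per library and fell under the minimum.

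HOX genes, whose proteins pair with PBX on DNA, differed little. Of 39 Hox genes 11 were measured, 0 passed and the median was -0.04. Hoxc13 had the largest difference, from 206 and 176 normalised counts in vector to 115 and 122 in Pbx3 cells, or -0.68 ± 0.18 on the log2 scale without passing (limma adjusted p = 0.815). Hoxa5 (0.16 ± 0.17), Hoxa9 (-0.12 ± 0.18) and Hoxc6 (0.10 ± 0.42) stood nearer to 0. The expressed genes lay in the HoxA and HoxC clusters. No gene of the HoxB and HoxD clusters had more than 2 exonic reads in any of the 4 libraries.

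PBX, MEIS and HOX proteins recognise short DNA words, and the promoters of the genes furthest from vector were read for them. The words searched on both strands were TGATNNAT, the site of PBX with HOX, TGATTGAT, a PBX word that is itself a case of the first, and TGACAG, the site of MEIS and PREP. Each window ran from 250 bases before to 50 bases after a gene's start in RefSeq on GRCm38.p6, matched by symbol, since the deposited tables use mm9. Of 44 named genes looked up, 26 had a promoter in the table and 4 of these held a word. TGATNNAT stood in 1 of 17 matched promoters of genes at least 2-fold higher and in 2 of 44 of genes at least 2-fold lower, beside 4.37% of all 7974 matched tested genes. TGATTGAT stood in 0 and 0, beside 0.327%. TGACAG stood in 5 and 5, beside 18.6% of tested genes. Over all 32851 promoters of the table the shares were 8.85%, 0.746% and 19.2%. A match describes the letters only. The sequences printed here are the promoters of Flrt2, Capn6 and Lphn2. Flrt2 had the largest exonic rise after Pbx3, and Capn6 is the named higher gene with a word. Lphn2 is a lower gene of the intronic reads that held both PBX words. Dpep1 held TGATNNAT and Tnn held TGACAG. Capitals mark the words found, and Flrt2 held none. Lphn2 is listed in RefSeq as Adgrl2. The windows are chr12:95691976-95692275 on the plus strand for Flrt2, chrX:143827363-143827662 on the minus strand for Capn6 and chr3:148954586-148954885 on the minus strand for Lphn2, each printed 5′ to 3′ along the gene.
Flrt2: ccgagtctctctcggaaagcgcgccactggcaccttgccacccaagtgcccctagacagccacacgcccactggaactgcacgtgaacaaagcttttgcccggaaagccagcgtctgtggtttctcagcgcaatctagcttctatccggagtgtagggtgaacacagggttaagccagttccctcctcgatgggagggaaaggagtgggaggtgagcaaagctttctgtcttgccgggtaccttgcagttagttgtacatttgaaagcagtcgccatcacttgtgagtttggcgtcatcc
Capn6: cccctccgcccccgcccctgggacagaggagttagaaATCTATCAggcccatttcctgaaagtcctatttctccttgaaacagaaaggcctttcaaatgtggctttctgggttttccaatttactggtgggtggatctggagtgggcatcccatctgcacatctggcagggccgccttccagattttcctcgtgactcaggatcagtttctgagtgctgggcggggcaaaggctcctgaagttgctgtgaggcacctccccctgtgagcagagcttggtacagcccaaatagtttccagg
Lphn2: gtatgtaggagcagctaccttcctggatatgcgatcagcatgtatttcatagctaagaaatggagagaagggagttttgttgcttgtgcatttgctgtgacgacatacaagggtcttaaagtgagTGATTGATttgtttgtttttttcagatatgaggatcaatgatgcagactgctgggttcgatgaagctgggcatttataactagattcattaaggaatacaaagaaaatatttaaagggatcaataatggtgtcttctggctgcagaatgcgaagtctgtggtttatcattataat

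In exonic reads, few genes passed the test. The test was limma on log2 of the normalised count plus 1. All 4 transfected groups (vector, Pbx3, Sox9 and Tead4) were in the fit to estimate the spread. A gene passes at a Benjamini-Hochberg adjusted p under 0.05. The test called 3 of 9826 genes (0.0305%): Pbx3 rose, and Fabp4 and Slc1a3 fell. At an unadjusted p under 0.05 there were 377. The authors' deposited table has 15 genes at its own adjusted p under 0.05 in exonic reads, 3 higher and 12 lower. Of these, 13 were among the tested genes and include the 3 limma calls. By size, with 1 added to each group mean, 31 genes were at least 2-fold higher (0.315%) and 64 at least 2-fold lower (0.651%), while 96.7% of genes lay within 1.5-fold. Of these 95 genes, 80 had libraries that did not overlap between groups, 26 higher and 54 lower. Over all tested genes 12.1% had both Pbx3 libraries above both vector libraries and 12.5% had both below. The minimum let 16 of the 31 and 20 of the 64 in through the group where they are high, so their fold is partly fixed by the rule. The threshold fell between Apobr at 1.001 and Lonrf3 at -0.993 on the log2 scale. The split depended on single libraries: without vector library 1 it was 140 higher and 42 lower, without vector library 2 31 and 120, without Pbx3 library 1 74 and 65, and without Pbx3 library 2 36 and 230.

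**Figure D1:**
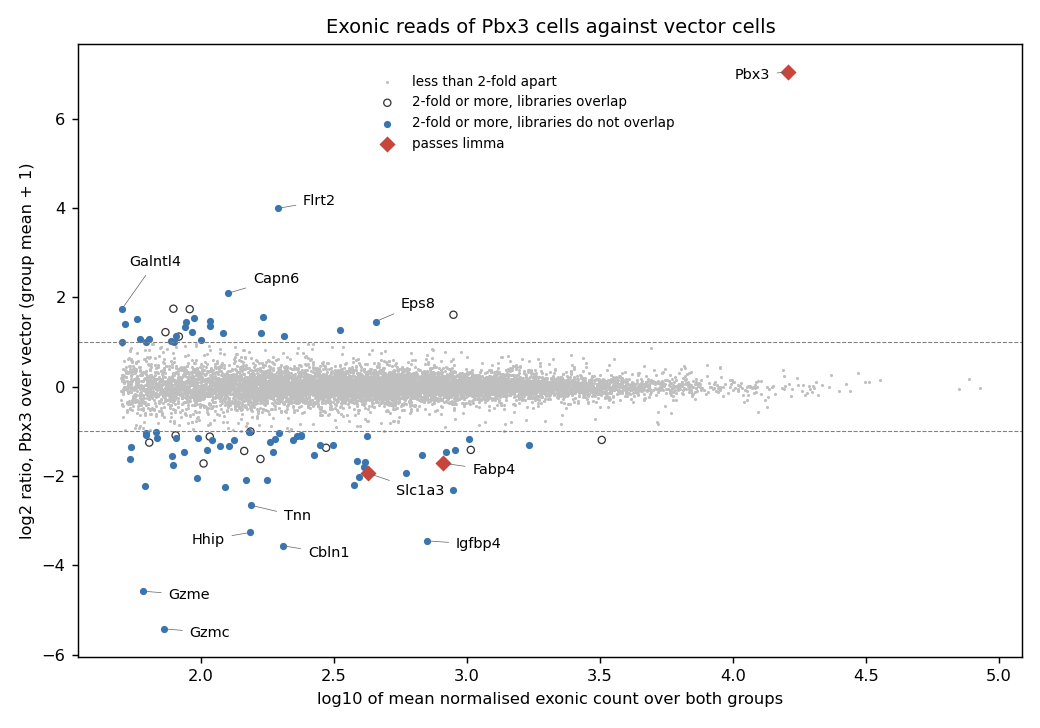
Each point is a gene of the exonic reads, with the log10 of its mean normalised count over both groups on the x axis and its log2 ratio of Pbx3 over vector on the y axis (dashed lines: 2-fold). Pbx3 stands at 7.05 and Flrt2 at 3.99, Gzmc and Gzme are lowest at -5.43 and -4.58, and red diamonds mark the 3 genes that passed limma.

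Fabp4, the fatty acid carrier of fat cells and macrophages, fell in both kinds of reads. Its exonic level was 1287 and 1212 normalised counts in vector and 334 and 426 in Pbx3 cells. Libraries of the same group lay close together and the groups far apart. The fall was -1.72 ± 0.15 on the log2 scale (limma adjusted p = 0.0167), or 3.28-fold lower. In intronic reads Fabp4 went from 222 and 147 to 46.2 and 49.6, a log2 change of -1.89 ± 0.22 (limma adjusted p = 0.0237). The Tead4 libraries were also low at 448 and 487, while the Sox9 libraries were high at 1966 and 1982. The exonic call was lost without vector library 1 (limma adjusted p = 0.138) and without vector library 2 (limma adjusted p = 0.0916).

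Slc1a3, a glutamate transporter, fell alike in exons and introns. Its exonic level was 694 and 648 in vector and 178 and 172 in Pbx3 cells, and its intronic level was 373 and 366 against 101 and 93.7. The replicate libraries nearly coincided in each group, and the groups lay far apart. The exonic change was -1.93 ± 0.19 on the log2 scale (limma adjusted p = 0.0333) and the intronic change -1.91 ± 0.15 (limma adjusted p = 0.00693). Sox9 libraries (392 and 271) and Tead4 libraries (411 and 476) lay between the other groups. Leaving out any single vector or Pbx3 library ended the exonic call, at limma adjusted p = 0.11 to 0.287, while the intronic call held in each case.

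Among the genes higher in Pbx3 cells, Flrt2 stood apart. It encodes a fibronectin leucine-rich repeat membrane protein that binds FGF receptors, latrophilins and netrin receptors. Its exonic level was 32.3 and 11.8 in vector and 413 and 321 in Pbx3 cells. The Sox9 libraries held 14.1 and 10.9 and the Tead4 libraries 23.7 and 26.8, so the Pbx3 libraries were the only high ones of 8. The exonic difference was 4.14 ± 0.47 on the log2 scale and just missed the test (limma adjusted p = 0.0615). It passed with a pseudocount of 10 (limma adjusted p = 0.022), a minimum mean of 10 (limma adjusted p = 0.047) and voom weights (limma adjusted p = 0.0268). It also passed with a term for the library axis, whose order is taken from these data (limma adjusted p = 0.000575). It did not pass with scaling to total reads (limma adjusted p = 0.0666) or with only the vector and Pbx3 libraries (limma adjusted p = 0.343). Leaving out single vector or Pbx3 libraries gave exonic differences of 3.45 to 4.83 on the log2 scale. The authors' deposited table gives Flrt2 an adjusted p of 2.55e-17. In intronic reads Flrt2 rose, from 12.5 and 19.3 to 197 and 145, by 3.36 ± 0.35 on the log2 scale (limma adjusted p = 0.0158). The intronic call was lost without vector library 1, Pbx3 library 1 or Pbx3 library 2, at limma adjusted p = 0.0774, 0.102 and 0.0776.

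Other named higher genes did not pass limma in exonic reads, though the authors' deposited table gives Eps8 an adjusted p of 0.00507. Eps8, an actin-capping adaptor of EGF receptor signalling, was 260 and 223 in vector and 670 and 660 in Pbx3 cells, a log2 difference of 1.46 ± 0.28, and the Tead4 libraries were also high at 607 and 367. Sema5a, a semaphorin guidance cue, was 99.6 and 72 against 186 and 327. Cap2, an actin-cycling protein, was 41.1 and 52 against 111 and 147, with only 1.28 to 23.4 in the Sox9 and Tead4 libraries. Fam38b, now named Piezo2, a mechanically gated channel, was 71.7 and 42.5 against 133 and 185. The groups did not overlap for any of these 4 genes, which the rule for naming them required.

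Further named higher genes did not pass in exonic reads either. Galntl4, a glycosyltransferase that starts O-linked sugar chains, was 32.3 and 13 against 62.2 and 94.5 in exonic reads. Its intronic level rose from 68.8 and 44.3 to 180 and 204, by 1.78 ± 0.23 on the log2 scale (limma adjusted p = 0.0368), and was higher still in Tead4 cells at 299 and 234. The intronic call of Galntl4 was lost without vector library 2, Pbx3 library 1 or Pbx3 library 2, at limma adjusted p = 0.131, 0.101 and 0.141, and with scaling to total reads (limma adjusted p = 0.0645). Capn6, a calpain-like protein without protease activity, was 60.3 and 34.2 against 92.4 and 316, with 591 and 225 in Sox9 cells. Tspan15, a tetraspanin partner of ADAM10, was 49.8 and 46.1 against 122 and 159. Pip5k1b, a phosphoinositide kinase, was 32.3 and 26 against 66.9 and 104. Ralgps2, an exchange factor for Ral GTPases, was 35.8 and 20.1 against 61.3 and 89.4. Slc38a1, a glutamine transporter, was 63.8 and 56.7 against 138 and 173. Capn6 varied severalfold between its own Pbx3 libraries, whereas Tspan15 and Slc38a1 were tighter.

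Among the lower genes, the furthest were granzymes, serine proteases of cytotoxic lymphocytes. Gzmc was 223 and 63.8 normalised counts in vector and 4.71 and 0 in Pbx3 cells. That is 309 against 5 reads, a 63.1-fold lower level with a counting interval (95%) of 26.8 to 196, which covers counting error only. Gzme went from 248 to 8 reads, 31.7-fold lower (15.8 to 74.2). Intronic Gzmf went from 284 to 8 reads, 36.1-fold lower (18.1 to 84.4). These granzymes reached the minimum only through their vector level and were named for their low ratios. Their folds are thus partly fixed by the rule, which the intervals do not take into account. Sox9 and Tead4 libraries were also under vector for Gzmc, at 17.2 to 49.2. None of these granzymes passed the test, and as close copies of each other in a gene cluster they can share reads, so their separate counts are uncertain. The immune markers Ptprc and Itgam had 0 exonic reads in all 4 libraries.

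The named lower genes include Hhip, Sfrp1, Chrdl1 and Igfbp4. Hhip, the decoy receptor of hedgehog ligands, was 320 and 236 in vector and 39.6 and 16.4 in Pbx3 cells, a log2 difference of -3.37 ± 0.52. Sfrp1, a secreted Wnt inhibitor, was 2068 and 888 against 317 and 274. Chrdl1, a BMP antagonist, was 825 and 1050 against 318 and 173 in exonic reads and fell in intronic reads from 738 and 919 to 247 and 159, by -2.05 ± 0.22 on the log2 scale (limma adjusted p = 0.0158). Igfbp4, which binds insulin-like growth factors, was 1977 and 614 against 74.4 and 160. The groups of these genes did not overlap, which the rule for naming Hhip, Sfrp1 and Igfbp4 required. Each gene was also under both vector libraries in the Tead4 and the Sox9 libraries. In Tead4 cells Hhip was at 5.46 and 4.46, Sfrp1 at 145 and 244, Chrdl1 at 73.7 and 75.8 and Igfbp4 at 19.1 and 43.5. In Sox9 cells Hhip was at 51.2 and 25, Sfrp1 at 824 and 312, Chrdl1 at 518 and 611 and Igfbp4 at 265 and 108. The authors' deposited table gives an adjusted p of 4.76e-09 for exonic Hhip and 4.89e-05 for exonic Chrdl1, and limma 0.2 and 0.186. The intronic call of Chrdl1 was lost without vector library 1 (limma adjusted p = 0.0725) and without vector library 2 (limma adjusted p = 0.116).

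The other named lower genes did not pass limma in exonic reads. The authors' deposited table gives adjusted p of 2.35e-08 for Tnn, 2.1e-05 for Sdpr, 4.8e-05 for Sncaip and 5.57e-05 for Cxcl14. It does not call Cbln1, Adamts9 or Dpep1. Tnn, the tenascin-family protein of bone and teeth, was 268 and 267 in vector and 47.1 and 36 in Pbx3 cells, with 136 and 137 in Sox9 and 3.64 and 13.4 in Tead4 cells. Cbln1, a synapse-organising secreted protein, was 565 and 184 against 35.8 and 25.7. Adamts9, a proteoglycan-cleaving protease, was 930 and 307 against 82.9 and 183. Cxcl14, a chemokine, was 255 and 224 against 72.6 and 39. Sdpr, now named Cavin2, a coat protein of caveolae, was 283 and 290 against 67.8 and 64.7. Sncaip, the synuclein-interacting protein, was 237 and 171 against 41.5 and 43.2. Dpep1, a membrane dipeptidase, was 147 and 57.9 against 6.6 and 36. Tnn, Sdpr and Sncaip had close libraries within both groups, while Adamts9, Cbln1 and Dpep1 varied severalfold within a group.

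**Figure D2:**
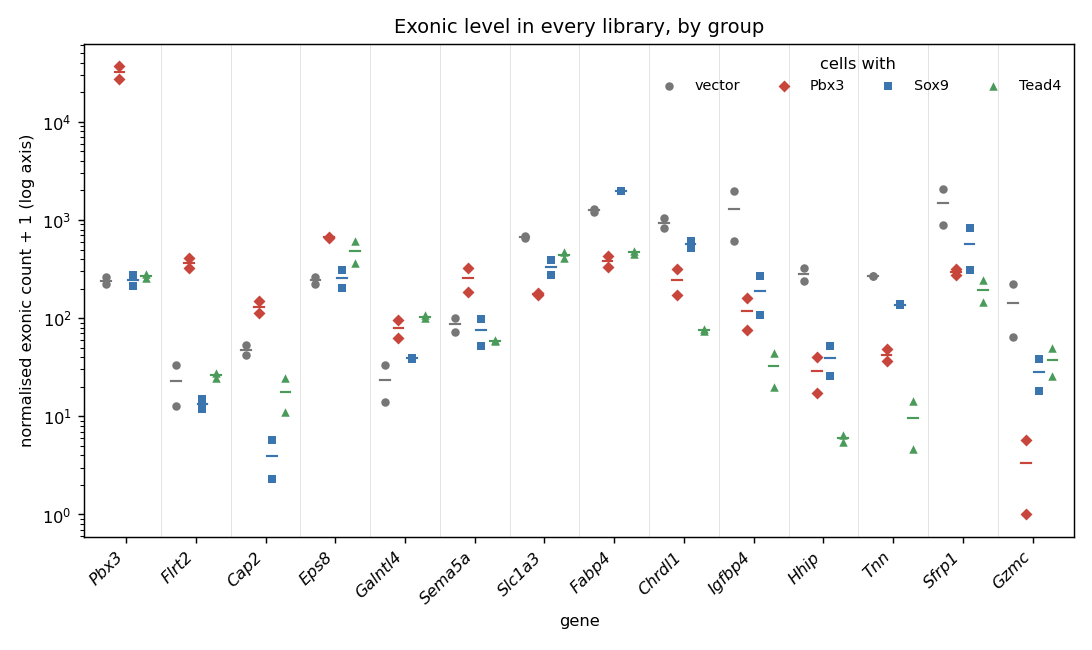
Exonic level of 14 named genes in each of the 8 libraries (normalised count plus 1, log axis), with a short line at each group's mean. Pbx3, Flrt2 and Cap2 are highest in the Pbx3 libraries, Slc1a3 is lowest there, and Igfbp4, Hhip, Tnn and Chrdl1 are lower still in the Tead4 libraries.

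Intronic reads gave more calls. Of 8557 genes 10 passed limma (0.117%), with 3 that rose (Flrt2, Pbx3, Galntl4) and 7 that fell (Slit3, Ccl7, Chrdl1, Efna5, Slc1a3, Fabp4, Gprin3), and 381 had an unadjusted p under 0.05. The authors' deposited table has 19 genes at its own adjusted p under 0.05 in intronic reads, 4 higher and 15 lower. Of these, 15 were among the tested genes, and 9 of the 10 limma calls are among them. With voom weights 5 of the 10 no longer passed (Ccl7, Efna5, Fabp4, Galntl4 and Gprin3, at limma adjusted p = 0.0542 to 0.0586), and with only the vector and Pbx3 libraries in the fit 0 passed, beside 248 with an unadjusted p under 0.05. By size 17 were at least 2-fold higher (0.199%) and 53 at least 2-fold lower (0.619%), and 63 of these 70 did not overlap, 15 higher and 48 lower. The minimum let 5 of the 17 and 25 of the 53 in through the group where they are high, among them Flrt2, Slit3, Ccl7 and Fabp4, so their fold is partly fixed by the rule. Over all intronic genes 12.5% had both Pbx3 libraries above vector and 13.3% below. Without vector library 1 the split became 69 higher and 34 lower, without vector library 2 25 and 84, without Pbx3 library 1 42 and 49, and without Pbx3 library 2 15 and 147.

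Slit3, a secreted ligand of ROBO guidance receptors, had the largest intronic fall. It went from 393 and 233 in vector to 15.1 and 18.7 in Pbx3 cells, by -4.09 ± 0.38 on the log2 scale (limma adjusted p = 0.00853). The Sox9 libraries (54.8 and 29.9) and Tead4 libraries (8.54 and 10.2) were low too. Its call was lost without vector library 1 (limma adjusted p = 0.0725). Efna5, an ephrin ligand, fell from 338 and 337 to 105 and 64, by -2.03 ± 0.27 (limma adjusted p = 0.0368), and stood at 408 and 330 in Sox9 cells and at 131 and 195 in Tead4 cells, under both vector libraries. Slit3 and Efna5 were not tested in exonic reads, where they lay under the minimum. Lphn2, a latrophilin adhesion receptor, was 149 and 95.4 against 16.9 and 23.2, short of the threshold (limma adjusted p = 0.135). The authors' deposited table gives intronic Lphn2 an adjusted p of 0.0117.

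Ccl7, a monocyte-attracting chemokine, fell in intronic reads from 190 and 165 to 35.5 and 28.7, by -2.44 ± 0.26 on the log2 scale (limma adjusted p = 0.0158). In exonic reads it was 515 and 759 against 244 and 122 and did not pass. Gprin3, a G-protein-regulated protein linked to neurite outgrowth, fell in intronic reads from 921 and 1275 to 382 and 232, by -1.86 ± 0.24 (limma adjusted p = 0.0368). Il15, a lymphocyte growth cytokine, was 78.6 and 44.3 against 90.6 and 262 and did not pass. Ccl7, Efna5 and Gprin3 kept their intronic calls only without Pbx3 library 1 among the settings that drop a library, with limma adjusted p = 0.0722 to 0.218 otherwise, and Efna5 and Gprin3 also lost theirs at a minimum mean of 200 (limma adjusted p = 0.0661). Intronic Fabp4 kept its call only without vector library 2 (limma adjusted p = 0.0256).

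**Figure D3:**
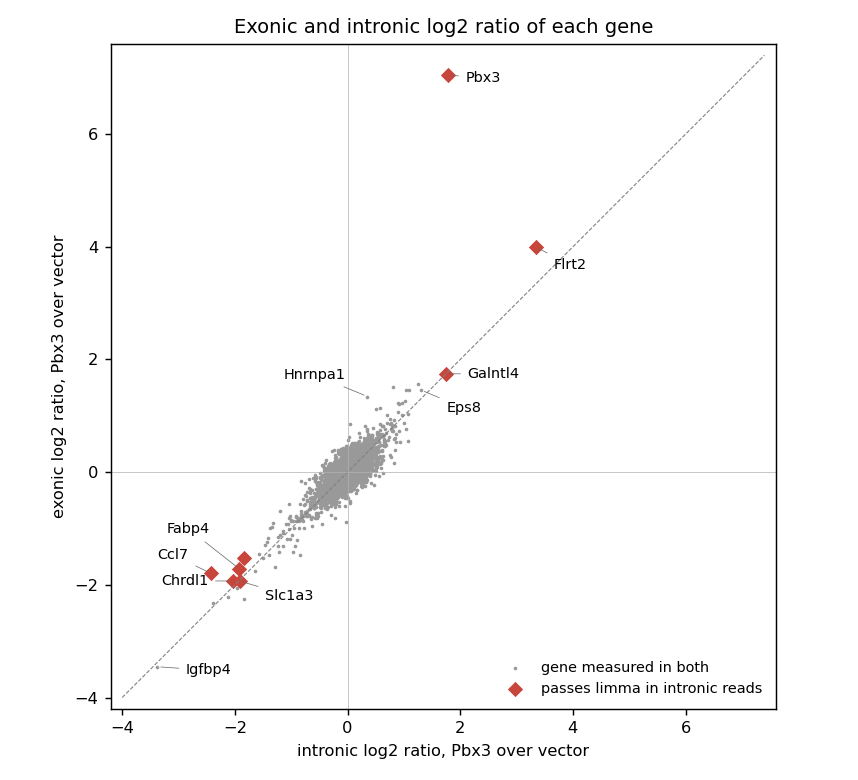
Log2 ratio of Pbx3 over vector in intronic reads (x axis) and exonic reads (y axis) for the 7973 genes measured in both, with a dashed line where both are equal. Red diamonds passed limma in intronic reads, and Pbx3 (1.78 in introns, 7.05 in exons) lies far above the line while Flrt2 and Galntl4 lie near it.

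Exonic and intronic differences went together. Of the 31 genes at least 2-fold higher in exons 19 were measured in introns, 19 had the same direction and 9 were also 2-fold higher, with a median log2 ratio of 0.97 in introns and 1.27 in exons. Of the 64 lower genes 34 were measured in introns, 34 had the same direction and 29 were 2-fold lower, with medians of -1.40 and -1.44. Across the 7972 genes other than Pbx3 the log2 ratios correlated at r = 0.798 (rho = 0.67), a description over genes that share the same libraries. The counts above share these libraries too. Within a group, the difference between its 2 libraries correlated between exonic and intronic reads at r = 0.791 (vector) and 0.818 (Pbx3). In the test of the exonic minus the intronic change, 1 of 7973 genes passed (0.0125%), Pbx3, and 237 had an unadjusted p under 0.05. The next largest differences were those of Hnrnpa1, a splicing factor with many processed copies (0.96 ± 0.34), St3gal1 (0.87 ± 0.31) and Hmcn1 (0.79 ± 0.37) above 0, and of Gm13251 (-0.74 ± 0.33), Clk2 (-0.71 ± 0.20), Dnase2a (-0.71 ± 0.24) and Rps20 (-0.67 ± 0.45) below 0. None of these passed.

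A second comparison asked how Pbx3 cells differ from cells that received another factor. The Pbx3 libraries were tested against the mean of the Sox9 and Tead4 groups, and 32 of 9826 genes passed (0.326%), 13 higher and 19 lower in Pbx3 cells. Of the 31 genes at least 2-fold above vector 24 also had a Pbx3 mean above both other factors. The 31 were chosen for high values in the same Pbx3 libraries, which favours that outcome. Its share over all tested genes was not computed. In that direction 4 of the 31 passed: Pbx3, Flrt2, Cap2 and Zfp462. Zfp462, a zinc finger protein, was 171 and 219 in vector, 564 and 376 in Pbx3 cells and 92.8 to 211 in the other factor cells. Rgs17, a regulator of G-protein signalling, passed the other way, since it was 46.3 and 63.8 in vector, 133 and 128 in Pbx3 cells, but 482 and 423 in Sox9 and 312 and 253 in Tead4 cells. Of the 31 genes 1, Rgs17, was at least 2-fold above vector in both other groups.

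Some of the lower genes were also lower with the other factors. Of the 64 genes 14 were also at least 2-fold lower in both Sox9 and Tead4 cells, although all comparisons with vector share the vector libraries. A Pbx3 mean below both other factors was seen for 26 of the 64, which were chosen for low values in the same Pbx3 libraries. The shares of all tested genes for these counts were not computed. Of the 64 genes 3 passed as lower than the mean of the other factors: Fabp4, Pde4b and Col2a1, of which Col2a1 was not below its Tead4 mean. Pde4b, a cyclic AMP phosphodiesterase, was 138 and 95.6 in vector, 37.7 and 40.1 in Pbx3 cells, and 117 to 249 in the other factor cells. Col2a1, the main collagen of cartilage, was 509 and 390 in vector and 236 and 125 in Pbx3 cells. Its test rests on the Sox9 cells at 13902 and 10485, since the Tead4 libraries at 216 and 133 overlapped Pbx3 cells. Likewise Fabp4 was near its Tead4 level and far under its Sox9 level. Without Pbx3 library 1 the count of 32 became 3, and without Pbx3 library 2 it became 18.

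Gene lists of pathways and cell types showed small medians. Of 32 lists 2 had a member that passed in exonic reads and 5 in intronic reads, and the medians of lists with at least 5 measured members ran from -0.68 to 0.28 on the log2 scale. The median over all tested genes was -0.0014. An unadjusted p under 0.05 was held by 3.84% of all tested genes in exonic reads. Among lists with no member passing there, the counts were 3 of 13 osteoblast, 3 of 7 hedgehog, 3 of 8 insulin-like growth factor, 3 of 15 Wnt, 3 of 28 TGF-beta and BMP, 3 of 28 TEAD-YAP, 4 of 19 inflammation, 4 of 26 guidance, 4 of 34 matrix remodelling and 5 of 26 stress response genes. They were 2 of 12 retinoid and nuclear receptor, 2 of 17 collagen, 2 of 20 interferon and 2 of 42 replication genes, and the other lists held 0 or 1. A member is called above or below vector where both its Pbx3 libraries lie beyond both vector libraries, which 12.1% and 12.5% of all tested genes did.

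Osteoblast genes had the lowest median at -0.68. Of 13 measured members 0 passed and 3 had an unadjusted p under 0.05 (Sp7, Pth1r and the homeodomain factor Dlx5). At least 2-fold lower were 4, beside 0.651% of all tested genes. Below vector were 4 and above it 2, beside 12.5% and 12.1%. Sp7, the osteoblast transcription factor osterix, was 777 and 481 in vector and 130 and 261 in Pbx3 cells. Pth1r, the parathyroid hormone receptor, was 337 and 211 against 70.7 and 127, and Ibsp, a bone matrix sialoprotein, 89.1 and 75.6 against 11.3 and 41.1. Alpl, the alkaline phosphatase of bone, was 6686 and 2250 against 1316 and 2591, so its groups overlapped. The members above vector were the matrix protein Postn (0.86 ± 0.42 on the log2 scale) and Tnfrsf11b, the decoy receptor osteoprotegerin (0.44 ± 0.25). Members of this list also lay on the axis between libraries: the median log2 difference between the 2 libraries was 0.582 in vector and 0.820 in Pbx3 cells. With a term for library order in the fit, the same differences passed for 2 of 13 members in exonic reads, Sp7 (limma adjusted p = 0.00019) and Alpl (limma adjusted p = 0.00857), and for 3 of 12 in intronic reads, Sp7, Alpl and Pth1r. Over all tested genes 75 of 9826 passed with that term in exonic reads and 87 of 8557 in intronic reads. Other lists held from 0 of 42 replication genes to 4 of 34 matrix remodelling genes in exonic reads, and 2 of 7 hedgehog genes. The term takes its order of libraries from these data.

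Adipocyte genes were measured for 7 members, of which 1 fell (Fabp4) and 6 did not pass. Lpl, the lipoprotein lipase, was 3518 and 2245 in vector and 1404 and 1820 in Pbx3 cells. Pparg, the adipocyte master regulator, was 993 and 1127 against 804 and 662. Fasn went the other way, at 0.49 ± 0.26 on the log2 scale, with its Pbx3 libraries above vector. In exonic reads 3 members were below vector and 1 above, beside 12.5% and 12.1% of all tested genes. The median of the list was -0.09, so the list as a whole lay near 0.

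Of hedgehog pathway genes 7 were measured and 0 passed, with a median of -0.27. After Hhip the largest differences were those of the coreceptor Boc, at 348 and 270 against 123 and 148, and of Smo, the signal transducer of the pathway, at 1267 and 1359 against 1068 and 997. The groups did not overlap for these 3 genes, which the naming rule required of Hhip. Of 15 measured Wnt pathway genes and 28 TGF-beta and BMP pathway genes 0 and 0 passed in exonic reads, with medians of -0.07 and -0.01, and 1 of the 24 TGF-beta and BMP genes measured in introns fell (Chrdl1).

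Inflammatory genes held 19 measured members, with 0 passing in exonic reads, 1 above vector and 6 below, beside 12.1% and 12.5% of all tested genes. Ccl2, a chemokine for monocytes, was 379 and 411 against 144 and 128, and Cxcl1, a neutrophil chemokine, 195 and 155 against 92.4 and 85.3. The authors' deposited table gives exonic Ccl2 an adjusted p of 0.00616. The median of the list was -0.04. The stress response genes held 26 measured members with 0 passing, 6 above vector and 2 below, the former including the pseudokinase Trib3, at 101 and 102 against 173 and 295, and the transcription factor Atf3, at 58.6 and 41.3 against 90.5 and 132.

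The list of fibrillar and basement membrane collagens, which does not hold Col2a1, had a median of 0.24 over 17 measured members, with 0 passing, 6 above vector and 0 below. The basement membrane chains Col4a1, at 754 and 655 against 1253 and 1145, and Col4a2, at 388 and 316 against 660 and 529, had the largest differences, and both were higher still in Tead4 libraries. Of 26 measured guidance and cadherin genes 10 were above vector and 2 below in exonic reads, beside 12.1% and 12.5% of all tested genes. Of these 26 genes 0 passed, and the median was 0.05. After Sema5a the largest were the netrin Ntn1 (0.90 ± 0.37) and the ephrin Efnb2 (0.72 ± 0.28). In intronic reads 2 of 24 guidance genes fell, Slit3 and Efna5. TEAD-YAP targets had 9 of 28 members above vector and 2 below, 0 passing and a median of 0.19.

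Genes of growth and housekeeping lay near vector. Of 42 replication and mitosis genes and 42 ribosomal protein genes 0 and 0 passed, with medians of -0.08 and -0.02. Of 22 cholesterol synthesis genes 0 passed and none had both Pbx3 libraries beyond both vector libraries (0 above, 0 below). Those genes varied most between libraries of a group, with a median log2 difference of 1.345 in vector and 1.236 in Pbx3 cells. A separate list held 16 measured limb and face patterning factors, a class that PBX proteins are known to work with. In exonic reads 0 passed, the median was -0.18, and 3 were above vector and 5 below, beside 12.1% and 12.5%. In intronic reads 0 of 10 passed and 2 were at least 2-fold lower, beside 0.619% of all intronic genes. The largest intronic differences were those of Lhx9 (-1.10 ± 0.37) and Dlx5 (-1.05 ± 0.36). Lhx9 passed there only with the term for library order.

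**Figure D4:**
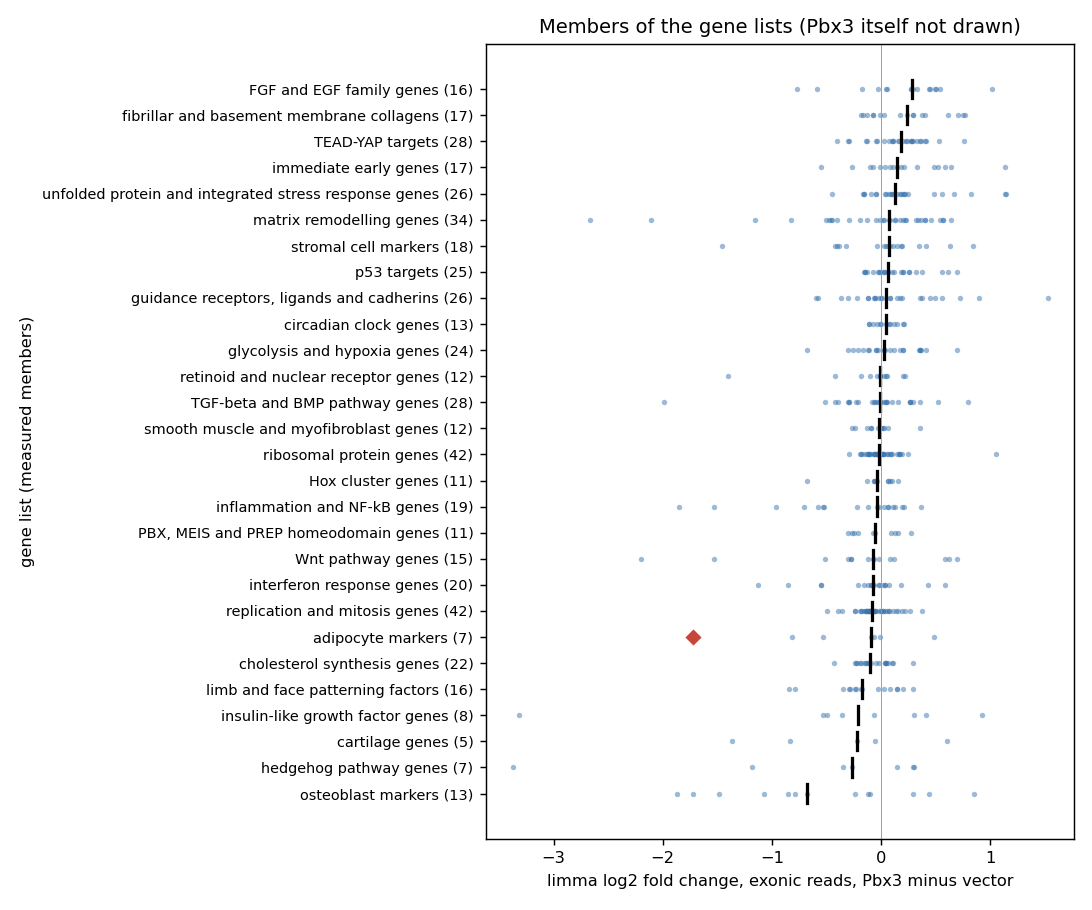
Limma log2 fold change of each measured member of the gene lists with at least 5 measured members in exonic reads (points), with the list's median as a black bar and the number of measured members in brackets. The osteoblast list has the lowest median at -0.68, the FGF and EGF family list the highest at 0.28, and Fabp4 among adipocyte markers is the member drawn as passing (Pbx3 itself is not drawn).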

How the data were processed

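Per the labels' protocols, the total RNA libraries kept strand and were single-end. The submitters' processing notes name Bowtie2, the mm9 build and DESeq 1.10.1. The signal columns, per the file headers, hold the authors' mean normalised counts of each group, that is read counts divided by size factors. The authors' fold change column is a ratio of both means, the authors' log2 column holds its log2, and the p-value and adjusted p columns are the authors' own. The sources used here do not give the annotation, the counting rules, the use of strand or how reads that fit several genes were treated.

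Whole reads of the 2 libraries behind each mean were recovered from the 6 tables of the factors at a tolerance of 1e-09, with a unique solution for 100% of genes, a method tested on simulated data (5000 of 5000 returned). All 3 tables gave identical vector reads (0 genes apart). Library 1 has the larger size factor. No value column was left without a group (0 columns). Genes under a mean of 50 over vector and Pbx3 were left out. limma 3.58.1 in R 4.3.3 was fitted with a mean-variance trend to log2(normalised count + 1) of 4 groups of 2 libraries, with 4 residual degrees of freedom and Benjamini-Hochberg adjustment over all genes. Values after ± are standard errors from that fit, and fold changes on this scale understate low genes. The ratio of group means used a pseudocount of 1. The design named limma on the recovered libraries because the tables hold no raw counts. For exonic minus intronic changes, each exonic library was matched to the intronic library that deviates the same way. Tested on simulated data with 200 changed genes, limma recovered 86 of 100 genes with a log2 change of 1 in exonic reads and 87 of 100 in intronic reads, and 100 of 100 with a change of 2, with 4.62% and 9.22% false calls. The simulation has no axis shared by libraries, so these rates need not hold.

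Named genes were the study's factors, the genes that passed limma, the 12 highest and 12 lowest exonic and 4 highest and 4 lowest intronic log2 ratios among genes at least 2-fold apart whose libraries do not overlap, the 4 largest differences each way between exonic and intronic change, and of each of 32 gene lists up to 4 members with the largest change. Zfp462, Rgs17, Pde4b, Postn, Tnfrsf11b, Dlx5, Apobr and Lonrf3 were chosen with their values in view. The members and lists were chosen with earlier results of these data known. Alternatives were a pseudocount of 10, minimum means of 10 and 200, scaling to total gene reads, only the vector and Pbx3 libraries, voom weights, a term for library order, leaving out each library, and a 1.5-fold threshold.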

Additional observations from a re-analysis of the deposited data

Results flagged for a closer look

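For 8 named genes the exonic level in Pbx3 cells differed from the mean of the Sox9 and Tead4 groups by the limma test of that difference, at an adjusted p under 0.05. Above the other factors were Pbx3 by 6.95, Flrt2 by 4.28, Cap2 by 4.07 and Zfp462 by 1.66 on the log2 scale. Below them were Fabp4 at -1.35, Rgs17 at -1.44, Pde4b at -2.17 and Col2a1 at -3.05. Rgs17 was above vector in Pbx3 cells and yet below the other factors, as Sox9 and Tead4 cells held more of it. Groups of 2 libraries are too small for a test of single outlying libraries.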

How the results depend on the processing

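Counts of genes that passed limma moved as follows against 3 in exonic and 10 in intronic reads. With only the vector and Pbx3 libraries they were 1 and 0 (248 intronic genes then had an unadjusted p under 0.05). With a term for library order, which sorts the libraries by the direction of their own difference and is a hint from the data rather than the design, they were 75 and 87. With a minimum mean of 200 the intronic count was 3, and with voom weights it was 5. Without single libraries the exonic count ran from 1 to 4 and the intronic count from 3 to 8. Each such fit leaves a lone library that is assumed to vary like the other groups. The exonic minus intronic count was 1 to 2 without single libraries. Against the other factors, beside 32, it was 59 and 12 with minimum means of 10 and 200, 51 with voom weights, 1189 with the term for library order, and 3 to 25 without single libraries. Exonic genes at least 2-fold apart, beside 95, numbered 222 and 32 with minimum means of 10 and 200, 322 at 1.5-fold and 139 to 266 without single libraries. Intronic ones, beside 70, numbered 179 and 19, 231 and 91 to 162. The cause was not tested, except that the minimum and the fold change which genes enter.

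Of 1241 values of 119 named gene results under alternatives, 1118 kept direction and side of the threshold, 58 passed where they had not, 47 no longer passed and 18 reversed. Reversals came only from leaving out a library, with log2 ranges of -0.35 to 0.20 for exonic Dicer1, -0.72 to 0.17 for Dnase2a, -0.080 to 3.25 for Hmcn1, -0.36 to 0.57 for Hoxc6, -0.31 to 0.25 for Rps20 and -0.86 to 0.42 for Sox9, and in intronic reads -0.084 to 0.29 for Dicer1, -0.10 to 0.059 for Gm13251, -0.59 to 2.19 for Hmcn1, -0.26 to 0.29 for St3gal1 and -0.12 to 0.28 for Tnfrsf11b. No paired analysis by label was possible because no label numbers the libraries, and the term for library order rests on the data alone. No voom fit was made of the exonic minus intronic change, and the comparison with the other factors has no form with the vector and Pbx3 libraries alone. The 2 libraries per group limit what a missed threshold can say.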
